A study of Homo sapiens with 72 samples.

Results

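The genes described here are the isocitrate dehydrogenases and the main enzymes of the tricarboxylic acid (TCA) cycle that surround them, IDH1, IDH2, IDH3A, IDH3B, IDH3G, CS, OGDH, FH and MDH2. They were found by symbol in a raw count table of 44659 gene names, and all 9 were present. They had been chosen with earlier results of these data in view, namely the low IDH1 mRNA of cells transfected against CTU2, the effect of glutamine on cycle enzymes, and mRNA stability. The table holds 72 QuantSeq 3′ mRNA libraries of cytoplasmic RNA from A375, an established human melanoma cell line, so that 1 genetic background was measured. In a first experiment, cells were transfected for 42 h with siCTU2, a pool of 2 siRNAs against CTU2, or with the control siRNA siGL2. In the second, the medium lacked glutamine (mQ) or contained it (pQ) for the last 18 h. Cells of all 4 conditions then received 25 µM triptolide, which blocks transcription (T arm), or triptolide with 100 µg/ml cycloheximide, which blocks translation (TCHX arm). They were harvested at once (0 h) or after 3 or 5 h, with 3 replicates in each of the 24 groups and 18 libraries per condition. The labels do not say that replicates came from separate cultures, so p-values measure only the spread between these libraries.

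The TCA cycle oxidizes acetyl groups in mitochondria and supplies reducing equivalents and precursors. Citrate synthase (CS) makes citrate, the NAD-dependent isocitrate dehydrogenase (a catalytic subunit, IDH3A, with the regulatory subunits IDH3B and IDH3G) forms alpha-ketoglutarate, and OGDH, a component of the alpha-ketoglutarate dehydrogenase complex, carries it on. Fumarase (FH) and mitochondrial malate dehydrogenase (MDH2) act in the last steps. IDH1 in the cytosol and IDH2 in mitochondria interconvert isocitrate and alpha-ketoglutarate with NADP, and can run towards isocitrate when glutamine carbon enters through alpha-ketoglutarate. CTU2 is part of the enzyme that thiolates the wobble uridine of the tRNAs reading GAA, AAA and CAA codons.

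The genes lie apart in the genome (GRCh38, GENCODE). IDH1 (ENSG00000138413.14) spans chr2:208236229-208266074 on the minus strand, IDH2 chr15:90083045-90102477 (minus), IDH3A chr15:78131498-78171945 (plus), IDH3B chr20:2658395-2664219 (minus) and IDH3G chrX:153785766-153794512 (minus). CS spans chr12:56271699-56300391 (minus), OGDH chr7:44606572-44709066 (plus), FH chr1:241497511-241519799 (minus) and MDH2 chr7:76048051-76067508 (plus).

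The guide strands of the transfected siRNAs are shown because IDH1 was the member with the lowest level in siCTU2 cells relative to siGL2 cells. They are written 5′ to 3′ with bases 2 to 8, the seed, in capitals.
siCTU2#1: uUGGUCAUgagcuugauag
siCTU2#2: aAGUCCUUcauguucacgc
siGL2: uCGAAGUAuuccgcguacg
Both siCTU2 guides pair over all 19 bases with the CTU2 coding sequence, siCTU2#1 in exon 8 of 15 (chr16:88713389-88713407, plus strand) and siCTU2#2 in exon 13 (chr16:88714907-88714925, plus strand). Their mRNA sites have the match to the seed in capitals.
CTU2 site of siCTU2#1: ctatcaagctcATGACCAa
CTU2 site of siCTU2#2: gcgtgaacatgAAGGACTt

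Seed matches (ATGACCA for siCTU2#1, AAGGACT for siCTU2#2 and TACTTCG for siGL2, none a part of another) were searched on the sense strand of 1 GENCODE transcript per gene. The IDH1 transcript held 3 matches to siCTU2#1, of which 2 were in the coding sequence and 1 in the 3′ UTR, and 1 match to siCTU2#2 in the coding sequence. IDH2 held 2 matches to siCTU2#1, CS 2, FH 1, and OGDH 1 to each siCTU2 guide, while IDH3A, IDH3B, IDH3G and MDH2 held none. No member held a match to siGL2. Among 10901 transcripts, 25.2% held at least 1 match to siCTU2#1, 29.4% to siCTU2#2 and 5.86% to siGL2. A match to siCTU2#1 in the 3′ UTR was held by 10.7%. The shares with 3 matches, or with matches to both siCTU2 guides, were not counted. The member site with the fewest mismatches to an siRNA was in IDH3A, in exon 6 of 11 (coding, chr15:78162256-78162274, plus strand), with the bases shared with the siCTU2#1 site in capitals.
IDH3A site: gTATCAAGCTCATcACCgA
It differed at 3 of 19 bases, and 0.147% of transcripts shared as long an unbroken stretch (12 bases) with siCTU2#1. The longest unbroken stretch of IDH1 with siCTU2#1 was 10 bases, and 3.71% of transcripts shared as long a stretch. A match describes the sequence and does not show that a guide acts there.

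Libraries held 5987692 to 15534331 counts, and levels are given as CPM (a gene's count divided by the library total, times 1000000), which are not compared between genes. Of the melanoma markers, 8 of 10 had a median of at least 1 CPM and their sum was 744 to 1572 CPM (MLANA and TYR were near 0), while 1 of 11 markers of other cell types (CD68) did. CTU2 itself was at 2.95, 1.01 and 1.32 CPM in siCTU2 cells and at 21.1, 22.03 and 24.2 CPM in siGL2 cells (T arm, 0 h). In the TCHX arm at 0 h its log2 fold change was -3.94 (edgeR quasi-likelihood test, adjusted p = 6.19e-11). In 3 libraries, counts covered 19896 to 20364 genes against 15507 to 17495 in the other 69. These were mQ T 5 h replicate 3, pQ TCHX 0 h replicate 3 and the library labelled siCTU2 TCHX 5 h replicate 3. The immune marker PTPRC was at 31.1, 31.8 and 32.6 CPM in them and at most 0.759 CPM elsewhere, and CD3E was at 32.4, 32.6 and 31.1 CPM against at most 0.304 CPM. In the last of them CTU2 was at 10.4 CPM and IDH1 at 31.5 CPM, which goes against its label, and IDH2 was at 57.0 to 59.0 CPM in the 3 libraries against 14.5 to 38.0 CPM in the others. In cells measured in bulk, fewer cells with a transcript and less RNA per cell cannot be told apart.

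IDH1 mRNA was nearly lost in siCTU2 cells. In the T arm at 0 h, IDH1 was at 6.01, 2.95 and 6.30 CPM with siCTU2 and at 71.5, 69.0 and 71.5 CPM with siGL2, a 13.9-fold difference (log2 fold change -3.79, SE 0.18). This contrast was used to choose the genes and is a description. In the TCHX arm at 0 h the values were 3.04, 4.45 and 5.99 CPM against 67.3, 68.0 and 64.4 CPM. The groups lay far apart, and IDH1 fell 14.8-fold (log2 fold change -3.89, SE 0.17, edgeR adjusted p = 1.71e-12), at the 0.0400th percentile of all fold changes. Because both arms were harvested at once at 0 h under the same replicate numbers, these libraries may share cultures with those of the T arm and are not an independent experiment. IDH1 was chosen for its low level in siCTU2 cells. Its adjusted p-values here and in the later siRNA libraries therefore give no independent support for that loss. The mean T arm levels at 0 h, in ascending order, were 5.09 ± 1.85 CPM in siCTU2, 70.7 ± 1.43 in siGL2, 76.4 ± 18.2 in mQ and 85.4 ± 5.25 in pQ (SD, n = 3). The ranges of siGL2 and mQ and those of mQ and pQ overlapped. IDH1-AS1, annotated antisense to IDH1, had 0 to 28 counts per library.

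**Figure D1:**
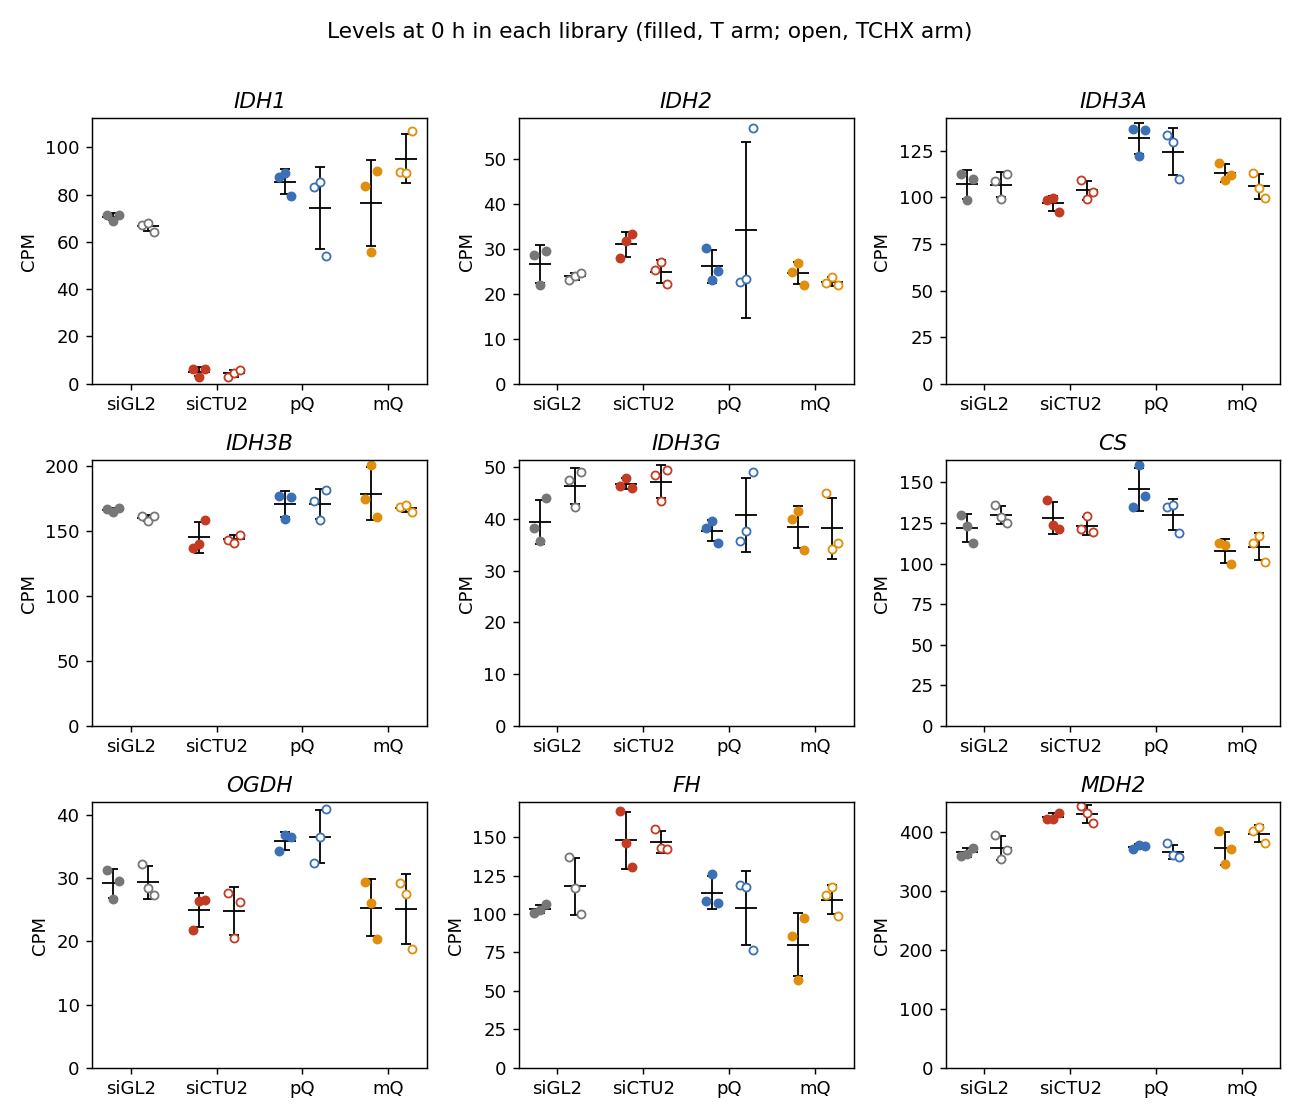
Level of each gene at 0 h in CPM, by condition, with 1 point per library (filled, T arm, open, TCHX arm) and black bars for the mean and SD (n = 3). IDH1 stands between 2.95 and 6.30 CPM in siCTU2 cells and at 54.1 CPM or more in the other conditions, and pQ TCHX 0 h replicate 3 stands at 57.0 CPM for IDH2.

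The ratio between the conditions was larger in the T arm after transcription had been blocked. With triptolide alone, siCTU2 cells held 1.26, 1.55 and 0.428 CPM at 3 h (14, 17 and 6 counts) and 0.863, 1.51 and 0.267 CPM at 5 h (8, 21 and 2 counts). siGL2 cells held 83.3, 70.0 and 73.2 CPM at 3 h and 83.1, 78.3 and 44.8 CPM at 5 h, so the ratio of means was 70.0 at 3 h and 78.3 at 5 h. With cycloheximide as well, siCTU2 cells held 1.71, 1.22 and 2.67 CPM at 3 h, 35.3-fold below siGL2. At 5 h the library labelled replicate 3 held 355 counts (31.5 CPM, exact 95% binomial interval 28.3 to 34.9, counting error only). Replicate 1 held 6 counts (0.608 CPM). Replicate 2 held 0 of 11875028 counts, which allows up to 0.253 CPM (3 counts, a one-sided 95% limit).

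When the 4 libraries of each replicate at 3 and 5 h were summed, the log2 fold change of IDH1 was -4.24 (SE 0.69, edgeR adjusted p = 0.00209), and -5.94 without the library that stands apart (adjusted p = 5.20e-08). With the 5 h libraries alone, which include it, the difference did not pass (log2 fold change -3.31, adjusted p = 0.121).

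**Figure D2:**
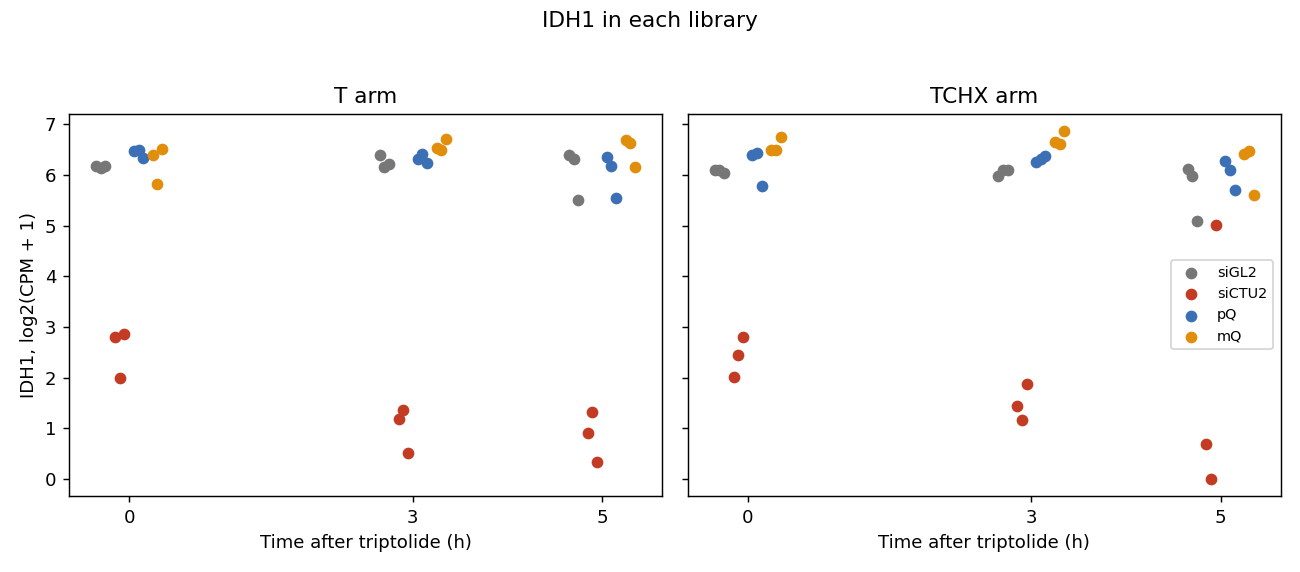
IDH1 in every library as log2(CPM + 1) on the vertical axis against hours after triptolide, T arm on the left and TCHX arm on the right, coloured by condition. The siCTU2 points lie below all others at every time, and the siCTU2 point that stands highest at 5 h in the TCHX arm is the library at 31.5 CPM.

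The other NADP-dependent enzyme, IDH2, did not show this loss. In the TCHX arm at 0 h, IDH2 was at 25.4, 27.2 and 22.3 CPM in siCTU2 cells and at 23.1, 24.1 and 24.6 CPM in siGL2 cells, and these overlapped (log2 fold change 0.07, SE 0.13, edgeR adjusted p = 0.713). In the 3 and 5 h sums the log2 fold change of IDH2 was 0.37 (SE 0.12, edgeR adjusted p = 0.0503), with adjusted p = 0.0279 in DESeq2, 0.0474 with RLE scaling and 0.0250 with the replicate block. Here 1 summed library is the one with IDH2 at 59.0 CPM, and without it the value was 0.26 (adjusted p = 0.149).

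The subunits of the NAD-dependent enzyme differed little between siCTU2 and siGL2 cells. IDH3B was at 143, 140 and 147 CPM against 162, 158 and 162 CPM at 0 h in the TCHX arm. Its groups did not overlap, but the difference did not pass (log2 fold change -0.15, SE 0.08, edgeR adjusted p = 0.142). In the 3 and 5 h sums IDH3B fell (log2 fold change -0.32, SE 0.10, edgeR adjusted p = 0.0415), a call that was lost in 5 of the 6 fits that left out 1 summed library (siCTU2 replicate 1, 2 or 3 or siGL2 replicate 1 or 2, adjusted p 0.0740 to 0.160). Those numbers pair the samples in these sums, and with the replicate block IDH3B passed (adjusted p = 0.0147). Without the library that stands apart its log2 fold change was -0.32 (adjusted p = 0.0349). IDH3A, with 109, 99.2 and 103 CPM against 109, 99.4 and 113 CPM at 0 h, overlapped (log2 fold change -0.03, adjusted p = 0.794), and was -0.24 in the sums (adjusted p = 0.0942, with the replicate block 0.0408, without the library that stands apart 0.0838). IDH3G had a log2 fold change of 0.03 at 0 h (adjusted p = 0.837) and -0.13 in the sums (adjusted p = 0.486).

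FH and MDH2, which close the cycle, stood higher in siCTU2 cells at 0 h. In the TCHX arm at 0 h, FH was at 155, 143 and 142 CPM in siCTU2 cells and at 137, 117 and 99.9 CPM in siGL2 cells. This was a rise of 0.33 on the log2 scale for FH (SE 0.10, edgeR adjusted p = 0.0153). MDH2 was at 444, 433 and 415 CPM against 396, 355 and 370 CPM, and rose by 0.21 (SE 0.07, edgeR adjusted p = 0.0270). The lowest siCTU2 library stood above the highest siGL2 library for both genes. The groups did not overlap for 4 of 9 members in this contrast, against 47.2% of all genes. With IDH1 this made 3 of 9 members called, where 37.2% of 12507 genes were called (18.3% higher, 18.9% lower), so the share of members is near that of all genes. The FH call was lost without siCTU2 replicate 1 (adjusted p = 0.0748) or siGL2 replicate 3 (0.0997), and the MDH2 call without siCTU2 replicate 1 or 2 or siGL2 replicate 2 or 3 (adjusted p 0.0668 to 0.122). Both calls were also lost when samples were scaled on stable genes (adjusted p = 0.0683 and 0.149). In the 3 and 5 h sums FH had a log2 fold change of 0.44 (SE 0.19, adjusted p = 0.115), and 0.45 with the replicate block (adjusted p = 0.00216). Without the library that stands apart it was 0.49 (adjusted p = 0.0508). FH was low in every replicate 3 library at 5 h, and with the 3 h libraries alone it rose by 0.47 (adjusted p = 0.000319). MDH2 did not pass in the 3 and 5 h sums (log2 fold change 0.11, SE 0.10, edgeR adjusted p = 0.466). It passed there in 0 of 15 alternatives.

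CS and OGDH did not pass at 0 h in the TCHX arm or in the 3 and 5 h sums. CS was at 121, 130 and 119 CPM against 136, 129 and 125 CPM at 0 h in the TCHX arm (log2 fold change -0.07, SE 0.08, edgeR adjusted p = 0.567). OGDH was at 27.6, 20.5 and 26.3 CPM against 32.3, 28.4 and 27.3 CPM, with overlap (log2 fold change -0.23, SE 0.14, adjusted p = 0.219). In the sums OGDH was again at -0.23 (adjusted p = 0.238), and with the 3 h libraries alone it passed (log2 fold change -0.32, adjusted p = 0.0216). In the 3 and 5 h sums 2 of 9 members were called, IDH1 and IDH3B, where 26.8% of 15058 genes were called (12.8% higher, 14.0% lower). With the replicate block 5 were called, which adds IDH2 (adjusted p = 0.0250), IDH3A and FH, in a fit that called 38% of all genes. The median log2 fold change of the members was -0.03 at 0 h, against -0.01 for all genes, and -0.13 in the sums, against 0.00362 for all genes. In the T arm at 0 h, given as a description, FH was 0.52 higher on the log2 scale, IDH3G 0.25, MDH2 0.22 and IDH2 0.22, while OGDH was at -0.23, IDH3B at -0.20 and IDH3A at -0.15. The 2 conditions did not overlap there for IDH1, IDH3B, IDH3G, OGDH, FH and MDH2, or 6 of 9 members, against 47% of 12292 genes. By the edgeR test 36% of all genes were called in this contrast (17.8% higher, 18.2% lower).

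**Figure D3:**
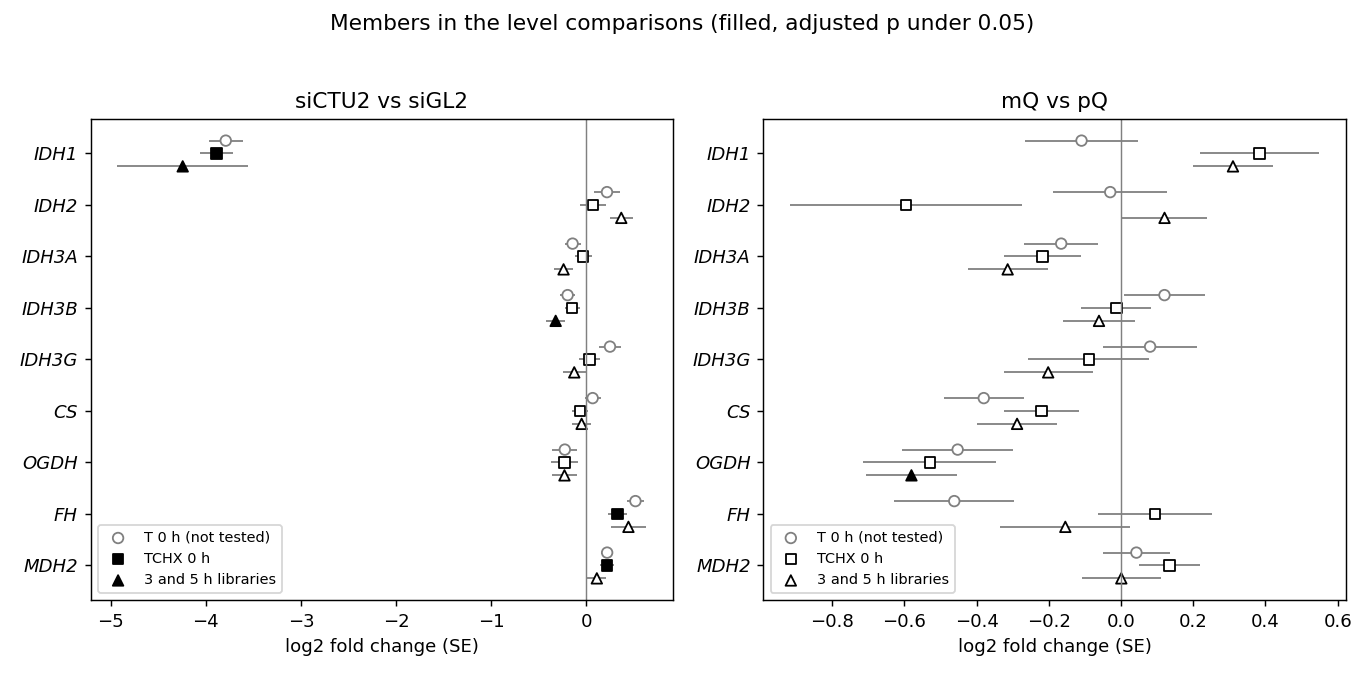
Log2 fold change of each gene with its SE in siCTU2 against siGL2 cells (left) and in mQ against pQ cells (right), for T 0 h (not tested), TCHX 0 h and the sums of the 3 and 5 h libraries, with filled symbols for an edgeR adjusted p under 0.05. IDH1 lies between -3.79 and -4.24 on the left, while the other genes lie between -0.32 and 0.52, and OGDH lies between -0.45 and -0.58 on the right.

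Of 10 other cycle enzymes 9 were tested in siCTU2 cells in the TCHX arm at 0 h, of which 1 rose and 3 fell, a share near the 37.2% of all genes that were called. DLD, the dihydrolipoamide dehydrogenase subunit, fell by 0.30 on the log2 scale, and SUCLG1, a succinyl-CoA ligase subunit, fell by 0.25. DLST, the partner of OGDH in its complex, rose by 0.31. Their median was -0.16. Of the 10 enzymes tested in the 3 and 5 h sums, 1 rose and 1 fell, where 26.8% of all genes were called. The one that rose was SDHD, a succinate dehydrogenase subunit (0.64, edgeR adjusted p = 0.0330, and 0.79 without the library that stands apart).

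Among 24 tested enzymes next to the cycle, 4 rose and 5 fell at 0 h in the TCHX arm, again a share near the 37.2% of all genes, with a median of -0.12. The 4 that rose were GOT1 (0.33), PDHX (0.28), GOT2 (0.25) and PDHA1 (0.24), named after their values were seen. PDK4 and PDK1, kinases that restrain pyruvate dehydrogenase, fell by 1.93 and 0.79. OGDHL, an OGDH-like protein, fell by 1.80, and SLC25A11, a mitochondrial carrier for malate and alpha-ketoglutarate, fell by 0.58. The fifth, also named after its value was seen, was PDHB, a pyruvate dehydrogenase subunit (-0.42). In the sums 1 of 24 rose (GOT1 at 0.37, named likewise) and 4 fell, among them PDK4 at -2.10, SLC25A11 at -0.80 and PC, which makes oxaloacetate from pyruvate, at -0.75. Without the library that stands apart PDK4 and SLC25A11 were called, while PC (-0.68, edgeR adjusted p = 0.0598) and GOT1 (0.30, 0.0643) were not.

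Without glutamine, OGDH stood below its level in pQ cells. In the T arm at 0 h, which is described and not tested, OGDH was at 29.5, 26.2 and 20.5 CPM in mQ cells and at 34.3, 36.9 and 36.6 CPM in pQ cells. At the same time CS was at 113, 111 and 99.5 CPM against 135, 161 and 142 CPM, and FH was at 85.4, 57.2 and 97.1 CPM against 109, 126 and 107 CPM. The groups did not overlap for these 3 genes and for IDH3A, or 4 of 9 members, against 42.8% of 12374 genes. By the edgeR test 24.8% of all genes were called in this contrast. Their log2 fold changes were -0.45 for OGDH (SE 0.15), -0.38 for CS (SE 0.11), -0.46 for FH (SE 0.17) and -0.17 for IDH3A (SE 0.10), and the other 5 members lay between -0.11 and 0.12.

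In the TCHX arm at 0 h none of the 9 members passed (edgeR), where 6.47% of 12521 genes were called (3.82% higher, 2.65% lower), and 2 had an unadjusted p under 0.05. These were OGDH, at 29.2, 27.5 and 18.8 CPM in mQ against 32.4, 36.5 and 40.9 CPM in pQ cells (log2 fold change -0.53, SE 0.18, adjusted p = 0.116), and IDH1, at 89.5, 89.3 and 107 CPM against 83.2, 85.2 and 54.1 CPM (log2 fold change 0.38, SE 0.16, adjusted p = 0.193). The IDH1 value of 54.1 CPM is from pQ replicate 3, which stands apart, and without that library the log2 fold change of IDH1 was 0.21 (adjusted p = 0.194). DESeq2 called none of the members either. The groups did not overlap for OGDH, IDH1, CS and MDH2, or 4 of 9 members, against 29.9% of all genes. FH was at 112, 117 and 98.9 CPM against 119, 117 and 76.4 CPM (log2 fold change 0.09, SE 0.16), and without pQ replicate 3 its log2 fold change turned to -0.0786. IDH2 was at 22.4, 23.9 and 21.97 CPM in mQ and at 22.7, 23.3 and 57.0 CPM in pQ cells. Its log2 fold change was -0.60 (SE 0.32, adjusted p = 0.296), and 0.01 without pQ replicate 3, the library in which PTPRC was at 31.8 CPM. Without that library 1 member was called, where 20.1% of all genes were called. This was IDH3A (log2 fold change -0.29, adjusted p = 0.0368), and OGDH was at -0.43 (adjusted p = 0.0836).

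In the 3 and 5 h sums OGDH fell by 0.58 on the log2 scale (SE 0.12, edgeR adjusted p = 0.0219), and was the 1 member called, where 9.87% of 14890 genes were called (5.71% higher, 4.16% lower). The effect of glutamine on cycle enzymes bore on the choice of members. Adjusted p-values of members in mQ against pQ, here and at 0 h, therefore give no independent support for that effect. OGDH was at 18.3 to 31.4 CPM in the 12 mQ libraries of these times and at 30.9 to 54.0 CPM in the 12 pQ libraries, and within each arm and time the groups did not overlap. CS did not overlap either, except in the T arm at 5 h, nor did IDH3A, except in the TCHX arm at 5 h. The share of all genes without overlap at these times was not counted. The OGDH call was lost in the fits without mQ replicate 1 (adjusted p = 0.0781), mQ replicate 2 (0.101), pQ replicate 1 (0.0616) or pQ replicate 2 (0.0577), with the direction kept. Without mQ T 5 h replicate 3, which stands apart, it was -0.62 (adjusted p = 0.0139). Replicate numbers pair these sums too, and with the replicate block 4 members were called, where 25.6% of all genes were called. OGDH was at -0.57 (adjusted p = 0.00262), IDH3A at -0.31 (0.0113), CS at -0.29 (0.0130) and IDH1 at 0.31 (0.00960). Without the block IDH1 was at 0.31 (adjusted p = 0.107), IDH3A at -0.31 (0.105), CS at -0.29 (0.133) and FH at -0.15 (0.642).

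Few of the surrounding enzymes were called in mQ cells. In the TCHX arm at 0 h none of 9 tested other cycle enzymes was called, with a median of 0.000901. Of 23 tested enzymes next to the cycle, 2 rose and 1 fell, where 6.47% of all genes were called, with a median of -0.00277. GOT1, a cytosolic aspartate aminotransferase, rose by 1.104 on the log2 scale, while SLC25A1, the mitochondrial citrate carrier, fell by 0.60. Without pQ replicate 3 GOT1 was at 1.40 and SLC25A1 at -0.61, both called, and ME2 (-0.47) and SUCLA2 (-0.66) were called as well, where 20.1% of all genes were called. In the 3 and 5 h sums GOT1 rose by 1.48 (edgeR adjusted p = 8.64e-05), and ME2, a mitochondrial malic enzyme, fell by 0.49 (adjusted p = 0.0424). None of the 10 other cycle enzymes was called there, and their median was -0.14.

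After 3 h of triptolide alone, the means of the 9 members in siGL2 cells had changed less than the typical mRNA, while IDH1 in siCTU2 cells had changed more. Change from 0 h was computed per replicate against genes taken as stable, and is a description. In siGL2 cells with triptolide alone for 3 h, IDH1 changed by -0.30 ± 0.12 on the log2 scale, IDH2 by -0.42 ± 0.50, IDH3A by -0.37 ± 0.06, IDH3B by -0.28 ± 0.02, CS by -0.12 ± 0.06, OGDH by -0.20 ± 0.06, FH by -0.28 ± 0.13, MDH2 by -0.20 ± 0.06 and IDH3G by 0.04 ± 0.14 (SD, n = 3), against a median of -0.50 over 12649 genes. With cycloheximide as well, FH (-0.73 ± 0.23) and IDH2 (-0.57 ± 0.17) had changed more than the median of -0.49. At 5 h of triptolide alone in siGL2 cells, FH changed by -0.94 ± 1.15, against a median of -0.80. In pQ cells at 3 h, CS changed by -0.72 ± 0.18, against a median of -0.71. The smaller change of the members therefore did not hold in every setting. In siCTU2 cells the remaining IDH1 mRNA changed by -2.73 ± 1.49 at 3 h (replicates -2.73, -1.23 and -4.22) and by -3.26 ± 1.94 at 5 h, at the 2.68th and 5.45th percentiles of all genes. These values rest on 2 to 21 counts per library after the block. The other 8 members changed by -0.30 to -0.48 at 3 h in siCTU2 cells, where the median of 12731 genes was -0.57.

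Glutamine status and IDH1 decay were compared in the same way. IDH1 changed by -0.28 ± 0.33 at 3 h and -0.23 ± 0.55 at 5 h in mQ cells, and by -0.70 ± 0.09 and -0.89 ± 0.48 in pQ cells. Replicate 3 of mQ at 5 h stands apart, and the mean of replicates 1 and 2 was 0.0674. Replicate 2 of mQ changed by 0.0954 at 3 h. Its IDH1 level at 0 h was 55.7 CPM, against 83.7 and 89.8 CPM in replicates 1 and 3. OGDH changed by -0.76 ± 0.30 in mQ and -0.71 ± 0.11 in pQ cells at 3 h. The median of all genes was -0.74 at 3 h and -0.67 at 5 h in mQ cells, and -0.71 and -0.80 in pQ cells. The direction of these changes depends on the scale. Over 9 members, 4 conditions and both times, 68 of 72 mean changes were below 0 against stable genes and 10 of 72 with TMM, which centres each library on its own genes. IDH1 in siCTU2 cells was at -2.19 (3 h) and -2.46 (5 h) with TMM.

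**Figure D4:**
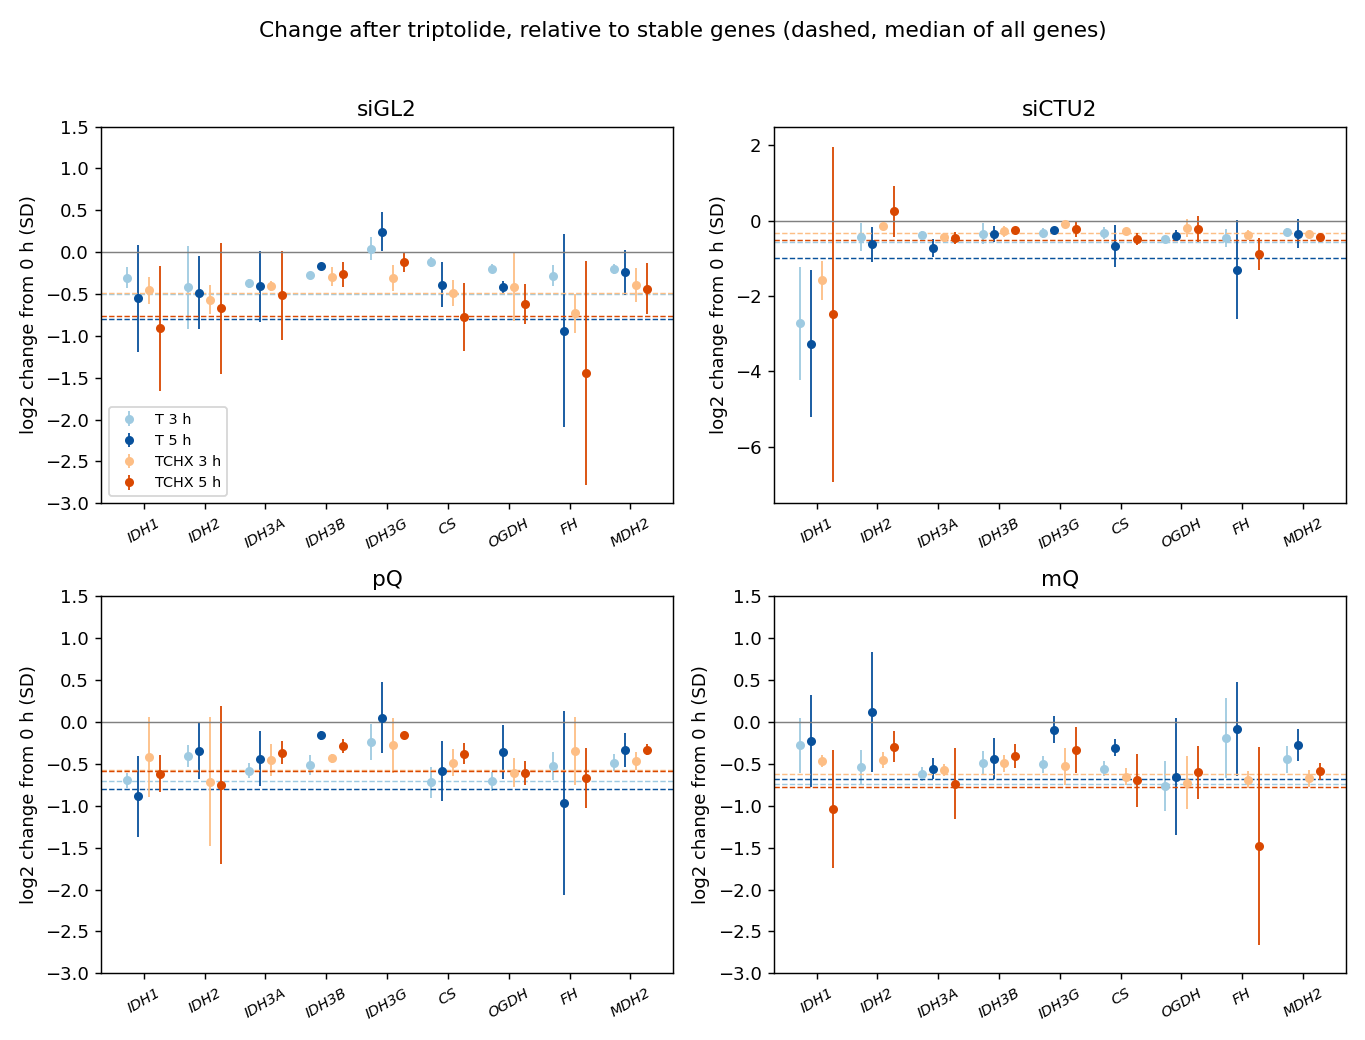
Mean log2 change from 0 h with its SD (n = 3) for each gene after 3 and 5 h in either arm, against stable genes, with dashed lines for the median of all genes. The siCTU2 panel has a wider scale, on which IDH1 lies at -2.73 (T 3 h), -3.26 (T 5 h) and -2.49 (TCHX 5 h, SD 4.45, or -4.74 without replicate 3, which stands apart), and in siGL2 cells the bars of FH at 5 h are the widest.

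Cycloheximide changed no member's mRNA beyond the spread (edgeR, mean of the difference between TCHX and T at 3 and 5 h). None of 9 was called in siCTU2, siGL2, mQ or pQ cells, where 21.1%, 12.7%, 5.24% and 12.7% of all genes were called. Nearly all of these genes were higher with cycloheximide (21.0%, 12.1%, 5.12% and 12.3% of genes), and 0.169%, 0.555%, 0.119% and 0.457% were lower. DESeq2 called none, and 1 member in siCTU2 cells and none in the other conditions had an unadjusted p under 0.05. The members' median was 0.07 in siCTU2, -0.16 in siGL2, -0.11 in mQ and -0.09 in pQ cells, against 0.22, 0.05, 0.05 and 0.06 for all genes. The effect in siCTU2 cells was largest for IDH1 (log2 difference 2.19, SE 0.87, adjusted p = 0.0876). Without the library labelled siCTU2 TCHX 5 h replicate 3 it was -0.41 (adjusted p = 0.785), and without replicate 2 it was 3.20 (adjusted p = 0.0449). The difference between siCTU2 and siGL2 cells was 2.47 for IDH1 (adjusted p = 0.282), where 0.379% of genes were called (0.351% higher, 0.0281% lower), and -0.14 without that library. Between mQ and pQ cells no gene of 14177 was called (edgeR), although 525 had an unadjusted p under 0.05, and the members' differences lay between -0.22 and 0.17.

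The calls for CS and MDH2 moved with scaling. In siGL2 cells CS was at -0.24 (edgeR adjusted p = 0.418) and MDH2 at -0.12 (0.678), and with TMM both were called as lower with cycloheximide in siGL2 and in siCTU2 cells. The index of translation-dependent decay, the mean of the differences between TCHX and T over the 0 h level, was 0.62 ± 1.22 for IDH1 in siCTU2 and -0.14 ± 0.04 in siGL2 cells (SD, n = 3), against medians of 0.10 and 0.02 over all genes. Without replicate 3, whose 5 h library goes against its label, it was -0.0810 in siCTU2 cells. Among neighbouring enzymes D2HGDH, which oxidizes D-hydroxyglutarate, rose with cycloheximide in siCTU2 cells (log2 difference 0.56), PDK4 rose in mQ (1.23) and pQ cells (1.11), and ME3 fell in pQ cells (-1.56). Without the libraries that stand apart D2HGDH was at 0.55 in siCTU2 and PDK4 at 1.77 in mQ cells, both called. In mQ cells D2HGDH (0.49, edgeR adjusted p = 0.00686) and PDHX (0.55, 0.00211) were then called as well. In pQ cells D2HGDH was at 0.44 (edgeR adjusted p = 0.0779), so its rise was not particular to siCTU2 cells. None of 24 was called in siGL2 cells.

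FH levels at 5 h split by replicate number in every condition. Replicate 3 was the lowest in 8 of 8 groups, at 22.05 to 87.1 CPM against 94.2 to 159 CPM in the 16 libraries of replicates 1 and 2, or 0.207 to 0.775 times their mean. The highest of these 8 values is that of mQ T 5 h replicate 3, a library that stands apart. At 3 h replicate 3 was the lowest in 4 of 8 groups. MDH2 was also lowest in replicate 3 in 8 of 8 groups at 5 h, at 0.788 to 0.941 times the mean of the others. IDH1 was lowest in 7 of 8 groups and CS in 6 of 8. OGDH and IDH3B were highest in 7 of 8, and IDH3G in 6 of 8. So the split was not particular to FH, and the share of all genes that split in this way was not counted. The column names of the counts carry a code shared by all libraries of the same replicate number, without saying what it stands for. The labels name no batch, and what moves FH or the other genes in replicate 3 was not tested.

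**Figure D5:**
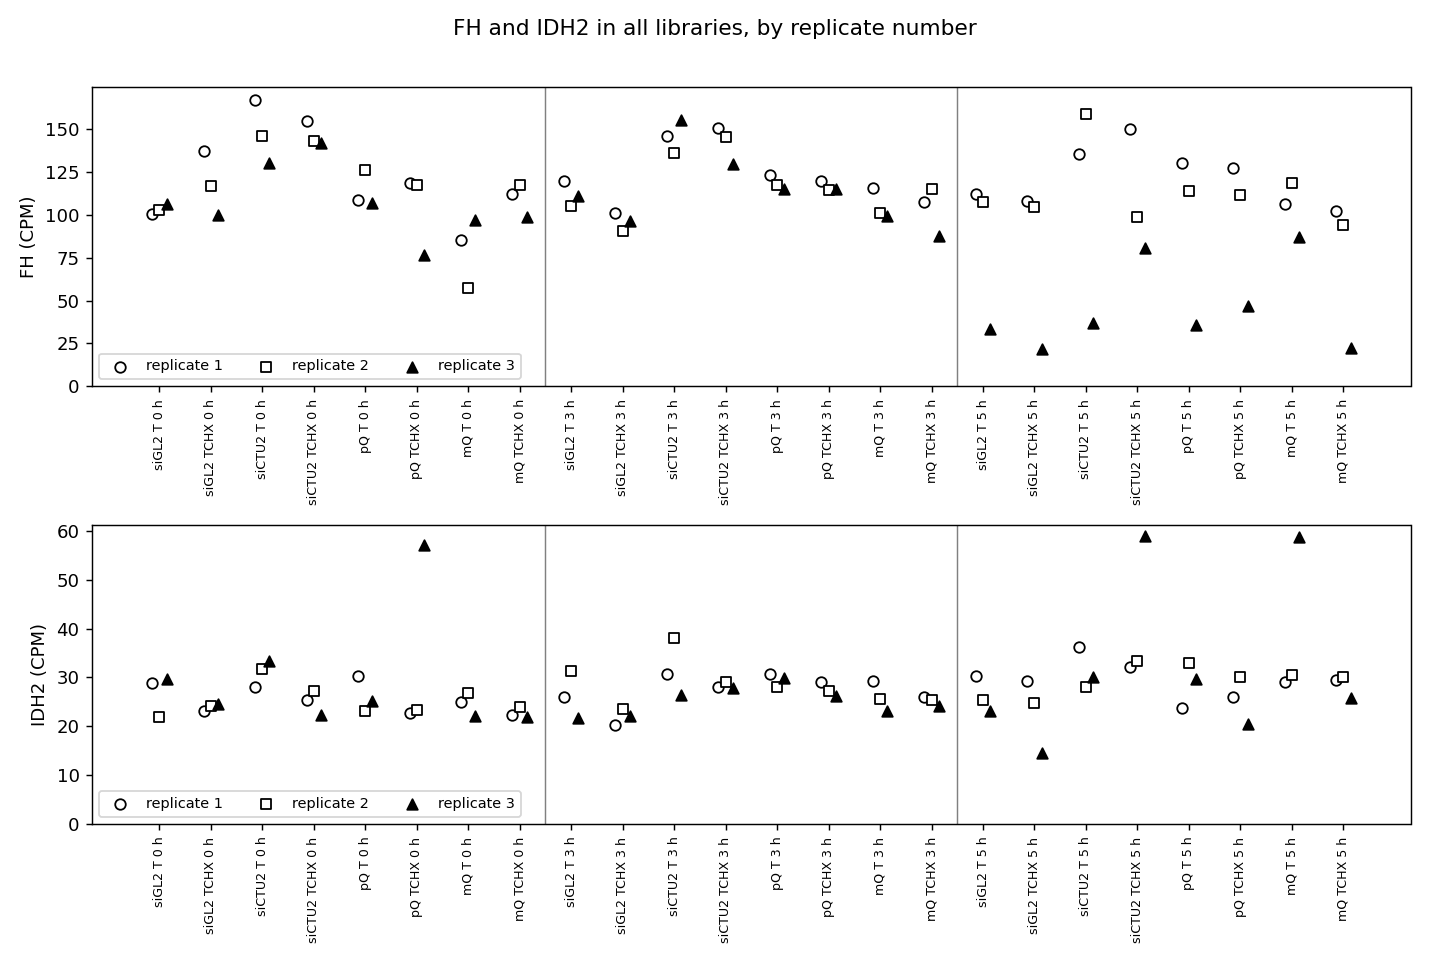
FH (top) and IDH2 (bottom) in CPM in all 72 libraries, grouped by time, condition and arm, with replicate 3 as filled triangles. At 5 h the triangles of FH lie at 22.05 to 87.1 CPM, below every library of replicates 1 and 2, and for IDH2 3 triangles lie at 57.0 to 59.0 CPM.

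The members also differ in the codons read by the tRNAs that CTU2 modifies. GAA, AAA and CAA made up 10.9% of the 414 codons of IDH1, at the 79.7th percentile of 10860 coding sequences with a median of 6.59%. In IDH2 they made up 2.43% (15.7th percentile). IDH3A had 6.56%, FH 7.45%, MDH2 4.73%, CS 4.08%, OGDH 3.32%, IDH3B 2.86% and IDH3G 2.54%. FH had GAA at 75.9% of its glutamate codons (94.7th percentile). Whether codon content bears on these mRNA levels was not tested.

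The genes whose levels resembled those of IDH1 most closely over the 24 group means, among 8223 genes, were RAB15 (Pearson r = 0.989), PIGX (0.988), GLTP (0.987), TMED10 (0.987) and RMDN3 (0.986). The points share libraries, and 6 of 24 are siCTU2 groups, so the likeness describes genes that were low in siCTU2 cells. TMED10 was at a mean of 53.2 CPM in siCTU2 and 330 CPM in siGL2 cells at 0 h (T arm), and GLTP at 3.99 and 34.4 CPM.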

How the data were processed

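The authors trimmed reads with fastp 0.20.1, aligned them with HISAT2 2.2.1 to GRCh38.p13 and counted them on exons with HTSeq 0.13.5, and deposited raw counts per gene name. QuantSeq reads come from 3′ ends and no molecular identifiers are stated, so intervals cover counting error only. The paper states that an ERCC spike-in mix was added to the RNA before library preparation. No spike-in names are listed in the table, so levels were not scaled on them.

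The 72 libraries were grouped by their labels, and levels are CPM of deposited counts. Tests used edgeR 4.0.16 (quasi-likelihood F-test, filterByExpr, TMM, R 4.3.3) over all genes with Benjamini-Hochberg adjustment and a threshold of 0.05. Cycloheximide effects and changes over time used size factors from stable genes after the study's methods (198 genes in the siRNA and 82 in the medium experiment, at least 0.2 CPM, no member among them), and changes a pseudocount of 0.5. The 0 h contrasts of the T arm are descriptions, because they bore on the choice of genes. On simulated counts for siCTU2 against siGL2 (TCHX 0 h, 12317 genes), 92% of 2-fold and 100% of 4-fold changes were recovered. The shares were 89% and 99% for cycloheximide in siGL2 cells (12852 genes), 78% and 98% for the mQ sums (14605 genes) and 65% and 98% for the cycloheximide difference between siCTU2 and siGL2 cells (13817 genes). Only well-counted genes were changed in these simulations, so the shares do not cover smaller changes or genes with few counts. The counts were drawn without a shared replicate effect and without libraries made to stand apart. The real data hold both, so the shares do not show how many changes the tests recover there.

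The members and lists were chosen with earlier results of these data known. All 9 members, CTU2, up to 4 called genes per list and comparison with the largest change, and the 5 genes most like IDH1 (at least 10 CPM, log2(CPM + 1)) were named, except for genes that are not reported here. D2HGDH, PDK4 and ME3 fall under the same rule. Alternatives were DESeq2 1.42.0, other scalings and filters, a replicate block, and fits that left out libraries. The use of 3 h or 5 h libraries alone, and the alternatives for the 0 h T arm, were chosen after seeing the data. Samples with the same replicate number deviated together in the siRNA sums (r = 0.564, 0.312 and 0.522), the medium sums (0.665, 0.266 and 0.594) and siRNA TCHX 0 h (0.155, 0.325 and 0.280), which were taken as paired. Figures used matplotlib 3.10.9. Sequences come from the study's siRNA table and from GENCODE.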

Additional observations from a re-analysis of the deposited data

How the results depend on the processing

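IDH1 was lower in siCTU2 than in siGL2 cells in every alternative of the level comparisons, at -3.67 to -4.14 on the log2 scale in the TCHX arm at 0 h (adjusted p at most 3.16e-10) and at -3.31 to -6.18 in the 3 and 5 h sums. Of the members, 3 were called in siCTU2 against siGL2 at TCHX 0 h, 1 with stable-gene scaling and 1 to 3 when 1 library was left out. In the siRNA sums 2 were called, where 26.8% of all genes were called. With the 3 h libraries only 4 were called, where 39.1% of all genes were, and with the replicate block 5, where 38% were. With the 5 h libraries only 0 were called. The number was 1 without a low-count filter, 1 in the T arm only, 1 in the TCHX arm only, and 1 to 3 with 1 sum left out. In mQ against pQ 0 were called at TCHX 0 h (0 to 1 with 1 library left out). In the mQ sums 1 was called, where 9.87% of all genes were called. With the 3 h libraries only 4 were called, where 24.6% of all genes were, and with the replicate block 4, where 25.6% were. The number was 0 in the T arm only, 0 with the 5 h libraries only, and 0 to 1 with 1 sum left out. For cycloheximide 0 were called, against 1 without a low-count filter and 2 with TMM in siCTU2 cells (0 to 1 with 1 replicate left out), 2 with TMM in siGL2 cells (0 to 2), 3 in pQ cells with genes stable at both times, and 1 without a low-count filter in siCTU2 minus siGL2. The cause was not tested.

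Some small values changed sign. In siCTU2 against siGL2 these were IDH3G in the sums (0.0193 with 3 h only), and with 1 library or sum left out IDH3A (-0.0888 to 0.00946) and IDH3G (-0.0309 to 0.0887) at TCHX 0 h and CS in the sums (-0.10 to 0.00107). In mQ against pQ at TCHX 0 h these were IDH3B with stable-gene scaling (0.0291) and, with 1 library left out, IDH2 (-0.82 to 0.0144), IDH3B (-0.0709 to 0.0462), IDH3G (-0.21 to 0.0808) and FH (-0.0786 to 0.20). In the mQ sums they were MDH2, at -0.0071 with DESeq2 and with RLE scaling, -0.0040 with the replicate block, -0.0035 in the TCHX arm only, -0.00013 with 5 h only and -0.0569 to 0.0754 with 1 sum left out, IDH2 (-0.0517 without the 3 libraries that stand apart, -0.15 with 3 h only) and IDH3B (0.0398 with 3 h only). The cycloheximide effect on IDH1 was -0.41 in siCTU2 cells without those libraries and -0.9999 to 3.20 with 1 replicate left out, and siCTU2 minus siGL2 was -0.14 and -0.76 to 3.54.

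Genes called ranged more widely than members, from 862 (5 h only) to 5727 (replicate block) around 4032 in the siRNA sums, from 60 (5 h only) to 3810 (replicate block) around 1469 in the mQ sums, from 133 to 2553 around 810 at mQ TCHX 0 h, and from 1476 to 3494 around 3071 at mQ T 0 h. For cycloheximide they ranged from 590 to 3291 around 2881 in siCTU2, 461 to 2576 around 1670 in siGL2, 1 to 3286 around 704 in mQ and 380 to 2351 around 1701 in pQ cells, from 0 to 160 around 54 for siCTU2 minus siGL2 and from 0 to 301 around 0 for mQ minus pQ. Replicate numbers did not pair the mQ and pQ samples at 0 h (r = 0.0866, -0.000495 and 0.0798 in the TCHX arm, where 2 of 3 correlated best with their own number), and the replicate block gave 717 calls there. It changed no call of a member at 0 h or for cycloheximide. Scaling moved the median of all genes by over 0.1 for cycloheximide in siCTU2 (0.22, and -0.00291 with TMM) and pQ cells (0.06, and -0.27 with genes stable at both times), for siCTU2 minus siGL2 (0.14, -0.00619 and 0.26), for mQ minus pQ (-0.04 and 0.32) and for siCTU2 against siGL2 at T 0 h (0.00478, and 0.10 with stable-gene scaling).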
